A study of Homo sapiens with 22 samples.

Results

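Cells carrying VPRP, a fusion of catalytically dead Cas9 (dCas9) to the VPR activator and to the acetyltransferase p300, were compared with cells carrying dCas9 fused to p300 without VPR. The comparison takes 4 of the 12 RNA-seq libraries of the series, chosen by the names of their count columns, and all 48162 gene IDs of the count table, of which 16694 passed the filter on low counts. The VPRP non-target group (2 libraries) had dCas9-VPRP with a guide RNA without a target, and the p300 group (2 libraries) had dCas9-p300 whose guide is directed at HBB, the gene of beta-globin. The fusions therefore differ in the VPR part and the guides differ as well. A further 4 groups of 2 libraries are set beside them: VPRP sgHBB, VPR and p300 D1399Y, each as a dCas9 fusion with the HBB guide, and WT cells, which held a guide that the labels do not name and no dCas9 fusion. The D1399Y change lies in the catalytic domain of p300 and weakens its acetyltransferase activity. All groups were HEK293, a line derived from human embryonic kidney, induced with dox over 48 hours. Cells were sorted for GFP and BFP, or for BFP alone in WT, before RNA extraction. The series calls the 2 libraries of a group biological replicates, and the labels do not say whether a line was 1 clone or a pool.

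VPR joins the activation domains VP64, p65 (the product of RELA) and Rta, which recruit the general transcription machinery and Mediator. The p300 protein, encoded by EP300, acetylates histones at enhancers and promoters, among them lysine 27 of histone H3, and is a coactivator for many transcription factors.

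EP300 had 1165 and 1179 CPM (read counts relative to library size, with TMM factors) in VPRP non-target cells, against 1116 and 1132 CPM in p300 cells. All 4 libraries thus lay within a narrow range, and the difference was not called (log2 0.06, SE 0.08, adjusted p = 0.562, quasi-likelihood test of edgeR, Benjamini-Hochberg adjusted; 95% interval of the log2 difference -0.10 to 0.22). In the other groups EP300 had 351 and 398 CPM (VPRP sgHBB), 111 and 86.3 CPM (VPR), 195 and 194 CPM (p300 D1399Y) and 110.4 and 103 CPM (WT), so both compared groups stood above the other 8 libraries. Reads of the fusion and of the endogenous gene are not separated in these counts. RELA had 106 and 119 CPM in VPRP non-target cells, against 96.996 and 106 CPM in p300 cells (adjusted p = 0.127), a difference that did not pass the test.

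HBB, the target of the guide in the p300 cells, had 0 counts in both VPRP non-target libraries, against 189 and 185 CPM in the p300 libraries. It was at least 2153-fold lower in VPRP non-target cells, taking 3 counts over both libraries as the floor. WT libraries also had 0 counts, while the groups with an HBB guide had 1732 and 1379 CPM (VPRP sgHBB), 65.8 and 94.98 CPM (VPR) and 76.1 and 82.1 CPM (p300 D1399Y). HBB reads were thus seen in every library with an HBB guide and in none without a named HBB guide.

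**Figure D1:**
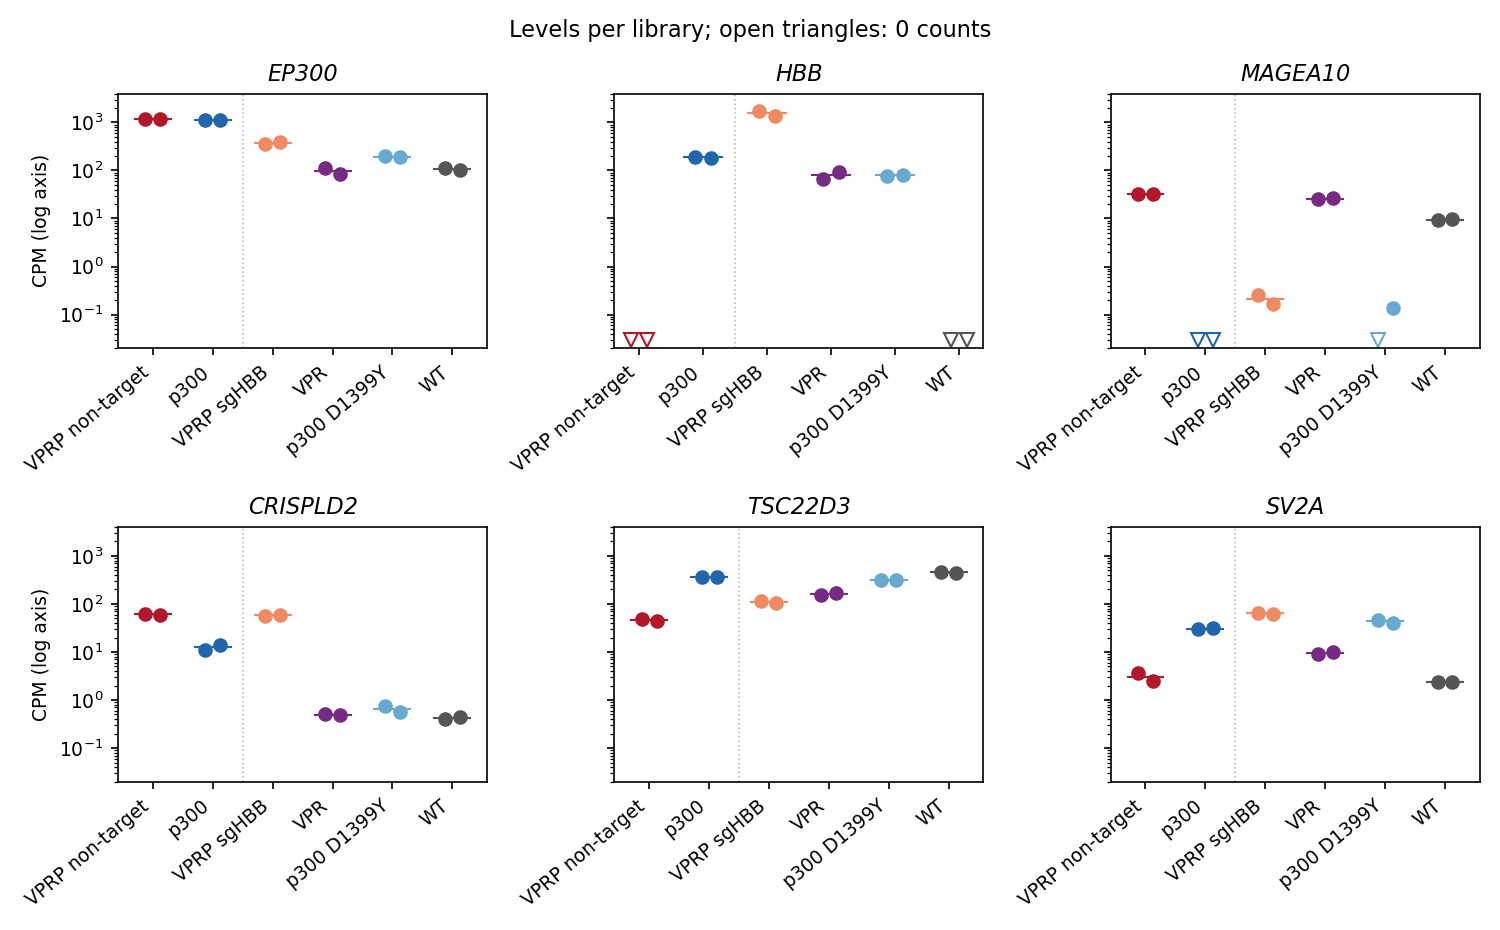
CPM in each library (points, log axis; bars are means of 2 libraries; open triangles are 0 counts) for 6 genes in the 6 groups; the dotted line parts the compared groups from the others. EP300 lay between 1116 and 1179 CPM in VPRP non-target and p300 libraries, HBB had 0 counts in VPRP non-target cells, MAGEA10 had 0 counts in p300 cells, and CRISPLD2 was high in both VPRP groups.

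Of the 16694 genes tested, 7821 (46.8%) differed between VPRP non-target and p300 cells at an adjusted p under 0.05. Of these, 3942 were higher (23.6% of genes tested) and 3879 lower (23.2%) in VPRP non-target cells. Changes of 2-fold or more were mostly increases, with 1532 genes higher (9.18%) and 524 lower (3.14%). The 2 libraries of one group lay outside the range of the other group for 74.9% of genes. With the same HBB guide on both sides but fewer EP300 reads in the VPRP cells, VPRP sgHBB against p300 gave 4660 called genes (27.9%), and 3089 without p300 replicate 1; that comparison shares the p300 libraries. VPR against WT, which shares no library with the main comparison, gave 4220 called genes (25.3%), and the count fell to 2548 to 2752 without VPR replicate 2, WT replicate 1 or WT replicate 2. Total counts per library ran from 14894558 to 17479523. Replicate variance was 2.86 times that of pure counting in VPRP non-target, 3.60 times in p300 and up to 13.7 times in VPR libraries. Fewer cells of a kind and less RNA per cell cannot be told apart in such bulk libraries.

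Some genes separated the libraries in a way that the fusions do not order. MAGEA10, a cancer-testis antigen gene of the X chromosome, had 32.1 and 32.03 CPM in VPRP non-target, 24.9 and 26.96 CPM in VPR and 9.34 and 9.57 CPM in WT libraries, while it had at most 0.261 CPM in the 6 libraries of p300, p300 D1399Y and VPRP sgHBB. In the 8 libraries outside the main comparison, WT and VPR did not overlap p300 D1399Y and VPRP sgHBB for 19.2% of genes. Between these 2 sets 8171 genes (48.9%) were called. Of the genes at least 2-fold higher in VPRP non-target cells, 126 of 1532 (8.22%) lay on the side of MAGEA10 in those 8 libraries and 125 lay on the opposite side. Of the genes at least 2-fold lower, 154 of 524 (29.4%) followed this pattern and 13 ran against it. A second pattern parts WT from the 6 libraries of VPR, p300 D1399Y and VPRP sgHBB. WT lay below all of them for 15.8% of genes tested and above them for 14.7%. WT is the other group with no named HBB guide, but it also held no dCas9 fusion and was sorted for BFP alone. These cannot be told apart. The 2-fold lower genes had WT on the low side in 145 of 524 cases (27.7%), and the 2-fold higher genes had WT on the high side in 54 of 1532 (3.52%). The part of either pattern in the differences below was not tested, and the genes are described with the side on which those libraries lay.

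Among the genes with the largest increase, several were silent or nearly so in p300 cells. MAGEA10 had 0 counts in both p300 libraries and was at least 356-fold higher in VPRP non-target cells. FOXJ1, the transcription factor that drives the programme of motile cilia, had 13.8 and 10.9 CPM in VPRP non-target cells, against 0.122 and 0.353 CPM in p300 cells (log2 5.64, SE 0.40, adjusted p = 1.30e-13). It had 2.48 and 3.04 CPM in VPRP sgHBB cells and at most 0.207 CPM in the 6 libraries of VPR, p300 D1399Y and WT, so its higher levels were in the groups with VPRP. CCDC116 had 14.3 and 11.4 CPM in VPRP non-target cells, against 0.673 and 0.53 CPM in p300 cells (log2 4.40). It had 2.48 and 2.93 CPM in VPRP sgHBB cells, and 0.76 and 1.51 CPM in VPR cells, above both p300 libraries. GOLGA6A, a golgin-family gene with close copies, had 9.597 and 8.14 CPM in VPRP non-target cells, against 0.306 and 0.471 CPM in p300 cells (log2 4.48). Its higher levels were in the groups with VPRP, as for FOXJ1, with 4.57 and 6.298 CPM in VPRP sgHBB cells. RASD1, a dexamethasone-inducible Ras-related GTPase, had 28.2 and 28.1 CPM in VPRP non-target cells, against 1.35 and 1.88 CPM in p300 cells, and was 17.3-fold higher (log2 4.12, SE 0.20, adjusted p = 5.80e-18). PCDH8, a protocadherin, had 22.5 and 21.3 CPM in VPRP non-target cells, against 1.53 and 1.18 CPM in p300 cells (log2 4.01, SE 0.23, adjusted p = 3.78e-16). For both genes VPRP sgHBB was intermediate (RASD1 16.6 and 14.9 CPM, PCDH8 9.33 and 10.9 CPM) and the libraries of VPR, p300 D1399Y and WT stayed below 1 CPM.

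Another 5 of the largest increases followed the MAGEA10 pattern. MAGEA3 had 40.2 and 36.2 CPM in VPRP non-target cells, against 1.04 and 0.883 CPM in p300 cells (log2 5.30, SE 0.20, adjusted p = 2.03e-21), with 12.3 and 11.6 CPM in WT. CHRM3, the muscarinic acetylcholine receptor M3, had 24.6 and 20.6 CPM in VPRP non-target cells, against 0.612 and 1.001 CPM in p300 cells (log2 4.79, SE 0.23, adjusted p = 2.70e-18), and 18.7 and 17.98 CPM in WT. TSSC2 had 25.7 and 23.5 CPM in VPRP non-target cells, against 1.16 and 0.824 CPM in p300 cells (log2 4.62, SE 0.20, adjusted p = 1.56e-19). MKRN3, an imprinted makorin ring-finger gene, had 5.04 and 3.93 CPM in VPRP non-target cells, against 0.245 and 0.0589 CPM in p300 cells (log2 4.83). LINC00470, a long non-coding RNA, had 3.58 and 5.76 CPM in VPRP non-target cells, against 0 and 0.177 CPM in p300 cells, a count ratio of 52.5 (exact 95% binomial interval 17.6 to 257, counting error only). For all 5 genes WT and VPR lay above p300 D1399Y and VPRP sgHBB without overlap.

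Most of the largest decreases after HBB were in genes that were also low in WT. TWIST2, a basic helix-loop-helix factor of mesenchyme, had 0.0607 and 0 CPM in VPRP non-target cells, against 3.61 and 4.42 CPM in p300 cells, a count ratio of 0.0072 (95% interval 0.000181 to 0.0408). WT and VPR had 0 counts, and p300 D1399Y (4.22 and 4.43 CPM) and VPRP sgHBB (4.11 and 2.93 CPM) were like p300. NCAM2, a neural adhesion molecule, had 0.243 and 0.665 CPM in VPRP non-target cells, against 7.59 and 7.24 CPM in p300 cells (log2 -3.98, SE 0.36, adjusted p = 4.42e-11). SV2A, a synaptic vesicle glycoprotein, had 3.71 and 2.44 CPM in VPRP non-target cells, against 29.7 and 31.5 CPM in p300 cells (log2 -3.32, SE 0.15, adjusted p = 9.01e-19); WT had 2.35 and 2.39 CPM, VPR 9.18 and 10.1 CPM, VPRP sgHBB 65.6 and 61.4 CPM and p300 D1399Y 46.99 and 40.9 CPM. COL16A1, a fibril-associated collagen, had 0.85 and 0.942 CPM in VPRP non-target cells, against 9.18 and 9.599 CPM in p300 cells (log2 -3.38, SE 0.24, adjusted p = 1.61e-13), and WT had 0.269 and 0.323 CPM. COL2A1, the cartilage collagen, had 13.4 and 14.2 CPM in VPRP non-target cells, against 94.7 and 99.9 CPM in p300 cells (log2 -2.82, SE 0.10, adjusted p = 5.47e-22). The neighbours PARP9 and DTX3L, whose products act as a complex in ADP-ribosylation and ubiquitylation, fell together. PARP9 had 0.547 and 0.277 CPM in VPRP non-target cells, against 5.14 and 4.24 CPM in p300 cells (log2 -3.50). DTX3L had 0.85 and 0.831 CPM in VPRP non-target cells, against 8.08 and 7.48 CPM in p300 cells (log2 -3.20). MAPK13, a p38 kinase, had 0.729 and 0.72 CPM in VPRP non-target cells, against 4.83 and 6.71 CPM in p300 cells (log2 -2.98), and WT had 0.672 and 0.517 CPM. For SV2A, COL16A1, COL2A1, PARP9, DTX3L and MAPK13 every WT library lay below every library of VPR, p300 D1399Y and VPRP sgHBB, and WT and VPR lay below p300 D1399Y and VPRP sgHBB.

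Other decreases did not follow the MAGEA10 pattern. DHRS3, a retinal reductase, had 2.37 and 2.88 CPM in VPRP non-target cells, against 15.1 and 14.8 CPM in p300 cells (log2 -2.50, SE 0.20, adjusted p = 1.70e-12), and no other library was below 5.91 CPM. GUCY1A1, a subunit of soluble guanylate cyclase, had 1.34 and 1.05 CPM in VPRP non-target cells, against 6.12 and 5.06 CPM in p300 cells (log2 -2.22, SE 0.28, adjusted p = 5.70e-08), and VPRP sgHBB had 2.28 and 3.04 CPM. SULT1C4, a sulfotransferase, had 0.729 and 0.222 CPM in VPRP non-target cells, against 2.33 and 2.297 CPM in p300 cells (log2 -2.29). DTX3, an E3 ubiquitin ligase of the Deltex family, had 0.607 and 0.332 CPM in VPRP non-target cells, against 3.24 and 4.95 CPM in p300 cells (log2 -3.12), and in WT it had 1.14 and 1.36 CPM, below all libraries of VPR, p300 D1399Y and VPRP sgHBB. TSC22D3, also known as GILZ, had 49.02 and 43.8 CPM in VPRP non-target cells, against 356 and 369.7 CPM in p300 cells, and was 7.82-fold lower (log2 -2.97, SE 0.08, adjusted p = 3.55e-25). Its level in WT was the highest of all groups at 460.0 and 448 CPM, and both VPRP groups and VPR lay below all libraries of p300, p300 D1399Y and WT.

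A related step without p300 is VPR against WT. It is not the same step, since WT cells held no dCas9 fusion and VPR cells carry the whole dCas9-VPR fusion. WT cells were also sorted for BFP alone. Of the 3942 genes higher in VPRP non-target cells, 619 (15.7%) were also higher in VPR against WT, which is 26.8% of the 2307 genes called higher there, and 331 (8.4%) were lower there. The background in VPR against WT was 13.8% of genes higher and 11.5% lower. Of the 3879 genes lower in VPRP non-target cells, 724 (18.7%) were also lower in VPR cells, which is 37.8% of the 1913 lower there, and 652 (16.8%) were higher. At 2-fold or more in both, 116 genes were higher (7.57% of 1532, and 28.7% of the 404 in VPR against WT) and 13 were lower (2.48% of 524, and 11.6% of 112). Those 404 and 112 genes are 2.42% and 0.671% of the genes tested. In opposite directions at 2-fold or more, 16 genes were higher in VPRP non-target cells and lower in VPR cells, and 40 were the reverse. Here the HBB guide stands on opposite sides, with p300 in the main comparison and with VPR in the other, and the WT guide is not named.

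LGALS1, which encodes galectin-1, was the most abundant of the 8 genes named here as higher in both comparisons. It had 86.9 and 75.9 CPM in VPRP non-target cells, against 11.9 and 10.1 CPM in p300 cells (log2 2.89, SE 0.12, adjusted p = 4.18e-20), and 11.1 and 12.04 CPM in VPR cells, against 2.15 and 2.199 CPM in WT cells (log2 2.41, SE 0.19, adjusted p = 1.61e-11). SFN, which encodes 14-3-3 sigma, had 7.11 and 7.59 CPM in VPRP non-target cells, against 1.71 and 1.88 CPM in p300 cells (log2 2.03), and 1.39 and 1.44 CPM in VPR cells, against 0.336 and 0.194 CPM in WT cells (log2 2.39). TMEM92 was higher by a log2 of 2.33 and 2.73 in the same pair of comparisons, and DUSP23, a dual-specificity phosphatase, by 1.70 and 2.10. MPO, the myeloperoxidase of granulocytes, had 4.25 and 2.33 CPM in VPRP non-target cells, against 0.122 and 0 CPM in p300 cells, a count ratio of 54.1 (95% interval 14.6 to 452). VPR cells had 5.38 and 4.79 CPM of MPO and WT had 0 counts, a difference of at least 51.5-fold; VPRP sgHBB had 4.76 and 5.08 CPM and p300 D1399Y 4.97 and 5.39 CPM, so p300 and WT were the low groups. INKA1, PRSS8 (the serine protease prostasin) and AEBP1 also passed both tests, with log2 2.35, 2.27 and 2.50 in the main comparison. Their calls in VPR against WT were lost when 1 library was left out (adjusted p = 0.0668 for INKA1 and 0.119 for PRSS8 without WT replicate 2, and 0.103 for AEBP1 without WT replicate 1 and 0.0543 without VPR replicate 1). For all 8 genes every WT library lay below all libraries of VPR, p300 D1399Y and VPRP sgHBB.

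Among the genes lower in both comparisons, TSC22D3 had 157 and 167 CPM in VPR cells, against 460.0 and 448 CPM in WT cells (log2 -1.49, SE 0.07, adjusted p = 1.18e-16). HRK, a pro-apoptotic BH3-only gene, had 9.05 and 9.97 CPM in VPRP non-target cells, against 19.3 and 21.8 CPM in p300 cells, and 23.5 and 19.3 CPM in VPR cells, against 50.3 and 42.7 CPM in WT cells. Its log2 changes were -1.11 and -1.12. CRMP1, a neuronal cytoplasmic phosphoprotein, changed by -1.15 and -1.07. ATF3, a stress-induced transcription factor, had 113 and 114 CPM in VPRP non-target cells, against 532 and 527 CPM in p300 cells (log2 -2.22, SE 0.08, adjusted p = 2.22e-22), and 47.6 and 53.6 CPM in VPR cells, against 111 and 99.2 CPM in WT cells (log2 -1.05). The p300 libraries had the highest ATF3 level of the 12. NUPR1, a stress-response cofactor, had 0.668 and 0.0554 CPM in VPRP non-target cells, against 2.203 and 2.89 CPM in p300 cells (log2 -2.84); its call in VPR against WT (log2 -1.27) was lost without WT replicate 2 (adjusted p = 0.132) or VPR replicate 1 (adjusted p = 0.079).

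In the integrated stress response, phosphorylation of eIF2alpha leads to translation of ATF4, which with C/EBP partners drives genes for amino acid synthesis, transport and feedback. Of its 19 list genes, all tested, 15 were lower and 2 higher in VPRP non-target cells than in p300 cells (background 23.2% and 23.6%), with a median log2 of -0.55 against 0.00 over all genes. VPR against WT gave 14 lower (background 11.5%) and 0 higher by edgeR (1 higher at an unadjusted p under 0.05, 0 higher by DESeq2), and 11 genes were lower in both. ATF4 itself had 987 and 949.7 CPM in VPRP non-target cells, against 1284 and 1255 CPM in p300 cells (log2 -0.39, SE 0.07, adjusted p = 3.08e-05). The cystine transporter gene SLC7A11 had 7.35 and 11.9 CPM in VPRP non-target cells, against 46.9 and 44.5 CPM in p300 cells (log2 -2.23, SE 0.13, adjusted p = 1.02e-15). CHAC1, a glutathione-degrading enzyme, had 10.1 and 8.98 CPM in VPRP non-target cells, against 27.97 and 30.6 CPM in p300 cells (log2 -1.62, SE 0.12, adjusted p = 8.46e-13). DDIT4, an inhibitor of mTORC1 signalling, had 27.7 and 25.7 CPM in VPRP non-target cells, against 69.9 and 74.2 CPM in p300 cells (log2 -1.43, SE 0.11, adjusted p = 3.95e-13). ASNS, asparagine synthetase, had 184 and 191 CPM in VPRP non-target cells, against 414 and 410.0 CPM in p300 cells (log2 -1.13, SE 0.07, adjusted p = 2.36e-15), and the serine synthesis gene PSAT1 had 206 and 209 CPM in VPRP non-target cells, against 462 and 459.7 CPM in p300 cells (log2 -1.15). PPP1R15A, the phosphatase subunit that reverses eIF2alpha phosphorylation, moved the other way, with 126 and 117 CPM in VPRP non-target cells, against 50.4 and 48.8 CPM in p300 cells (log2 1.29, SE 0.09, adjusted p = 4.46e-14). DDIT3, which encodes CHOP, had 11.4 and 11.1 CPM in VPRP non-target cells, against 10.5 and 10.8 CPM in p300 cells (adjusted p = 0.728). None of the 15 lower genes followed the MAGEA10 pattern; ATF4, CHAC1, DDIT4, ASNS and PSAT1 ran opposite to it, with WT and VPR above p300 D1399Y and VPRP sgHBB. The summed level of the list was 3375 and 3399 CPM in VPRP non-target cells, against 4661 and 4750 CPM in p300 cells, with 3023 to 3238 CPM in VPRP sgHBB, 4556 to 4567 CPM in VPR and 5538 to 5739 CPM in WT. In p300 D1399Y, a fusion without the VPR part, it was 3976 to 4039 CPM, below both VPR and WT.

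**Figure D2:**
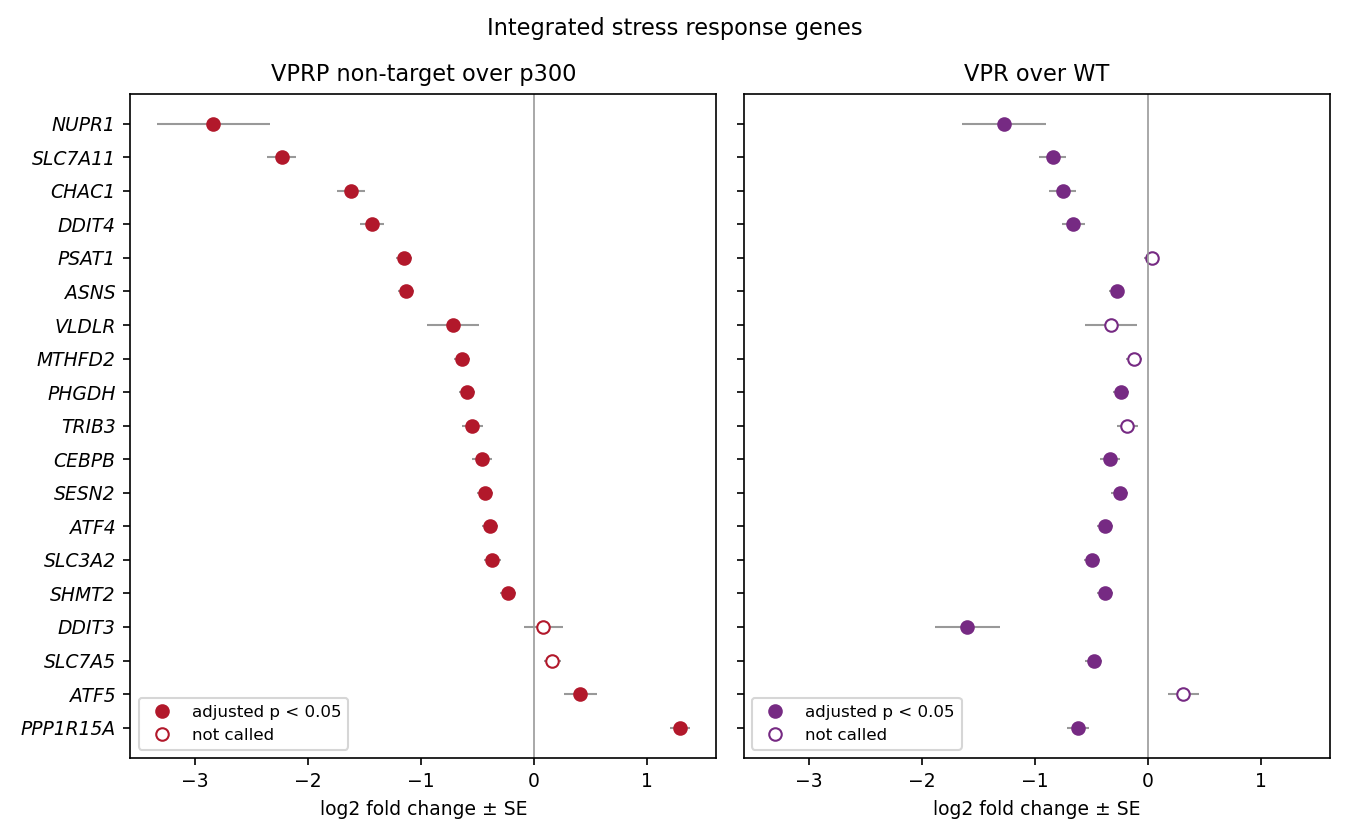
log2 fold changes with SE for the 19 integrated stress response genes, VPRP non-target over p300 on the left and VPR over WT on the right; filled points passed an adjusted p of 0.05. On the left 15 genes were lower and 2 higher, and on the right 14 were lower.

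The promoters of ASNS and CHAC1 are shown because both fell and both hold the C/EBP-ATF element core searched for. RefSeq promoter windows (GRCh38.p14, 250 bases before to 50 after the start site) were read on the gene's strand. The core, TGATGNAA on either strand, is in capitals. The ASNS window lies at chr7:97872359-97872658 (minus strand) and holds it 68 bases before the start site, and the CHAC1 window lies at chr15:40953221-40953520 (plus strand) and holds it on the opposite strand 209 bases before the start site.
ASNS: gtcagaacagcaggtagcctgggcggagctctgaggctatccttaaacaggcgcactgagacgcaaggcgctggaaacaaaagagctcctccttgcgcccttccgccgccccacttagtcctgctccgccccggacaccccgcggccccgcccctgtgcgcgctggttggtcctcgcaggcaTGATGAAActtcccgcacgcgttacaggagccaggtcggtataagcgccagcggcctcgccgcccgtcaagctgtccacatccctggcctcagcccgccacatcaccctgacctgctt
CHAC1: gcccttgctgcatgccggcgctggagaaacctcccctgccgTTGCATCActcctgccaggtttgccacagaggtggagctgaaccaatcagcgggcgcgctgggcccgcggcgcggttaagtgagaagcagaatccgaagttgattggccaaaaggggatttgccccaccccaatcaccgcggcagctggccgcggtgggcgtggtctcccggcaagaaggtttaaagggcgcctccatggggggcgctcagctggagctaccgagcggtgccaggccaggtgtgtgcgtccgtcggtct
The core was found in 3 of the 16 list genes with a window, against 4.46% of all 27305 genes with one; a match is a description of letters, not a site.

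A further list holds genes of the cleavage-stage embryo, many of them known targets of the double homeobox factor DUX4. Of 26 list genes, 25 matched an ID and 11 passed the count filter; these 11 were all higher in VPRP non-target than in p300 cells, but genes so low elsewhere passed the filter through the group where they are high, so this count is no support by itself. FRG2C had 83.7 and 84.8 CPM in VPRP non-target cells, against 3.73 and 2.297 CPM in p300 cells (log2 4.81, SE 0.16, adjusted p = 1.52e-22). FRG2B had 54.5 and 62.1 CPM in VPRP non-target cells, against 4.41 and 3.12 CPM in p300 cells (log2 3.95, SE 0.16, adjusted p = 7.09e-20). FRG2 had 18.5 and 16.7 CPM in VPRP non-target cells, against 1.77 and 1.83 CPM in p300 cells (log2 3.28, SE 0.22, adjusted p = 6.60e-14). Reads of these near-identical copies cannot be assigned to one of them with certainty. RFPL4A, a ret-finger-protein-like gene, had 81.6 and 80.8 CPM in VPRP non-target cells, against 7.65 and 5.71 CPM in p300 cells (log2 3.60, SE 0.13, adjusted p = 2.43e-21). For all 4 genes VPRP sgHBB was intermediate (FRG2C 45.01 and 34.7 CPM, RFPL4A 37.6 and 36.5 CPM), and VPR, p300 D1399Y and WT had at most 0.138 CPM in any library. ZNF280A had 8.93 and 9.75 CPM in VPRP non-target cells, against 1.04 and 0.412 CPM in p300 cells (log2 3.68). CCNA1, the germline cyclin A1, had 6.32 and 4.54 CPM in VPRP non-target cells, against 2.14 and 2.24 CPM in p300 cells (log2 1.30). DUXA, a double homeobox gene, had 1.701 and 1.496 CPM in VPRP non-target cells, against 0 and 0.0589 CPM in p300 cells, a count ratio of 53.1 (95% interval 9.14 to 2135). The other cleavage-stage markers were hardly counted: ZSCAN4 had 0.121 and 0.222 CPM in VPRP non-target cells, against 0.0612 and 0 CPM in p300 cells, and 5 of the 25 matched genes had 0 counts in all 4 libraries. Summed over the 25 genes, the level was 267 and 269.8 CPM in VPRP non-target cells, against 18.3 and 23.6 CPM in p300 cells. It was 122 to 137 CPM in VPRP sgHBB and 1.23 to 3.08 CPM over VPR, p300 D1399Y and WT. Of the 11 genes, 0 were called in VPR against WT by edgeR (1 at an unadjusted p under 0.05, 0 by DESeq2). With so few counts in VPR and WT a call was hardly possible, so that count is not a result about the list.

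The FRG2 and RFPL4A promoters are shown because these genes rose together and all hold the core promoter motif TATAAA, given in capitals. The windows are chr4:190027207-190027506 (FRG2, minus strand), chr10:133626746-133627045 (FRG2B, minus), chr3:75664078-75664377 (FRG2C, plus) and chr19:55758847-55759146 (RFPL4A, plus), from RefSeq on GRCh38.p14.
FRG2: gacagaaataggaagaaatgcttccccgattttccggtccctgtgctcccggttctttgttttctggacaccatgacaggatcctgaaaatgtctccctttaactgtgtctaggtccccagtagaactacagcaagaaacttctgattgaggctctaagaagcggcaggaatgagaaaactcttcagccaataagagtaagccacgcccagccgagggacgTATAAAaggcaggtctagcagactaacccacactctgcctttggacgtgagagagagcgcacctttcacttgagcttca
FRG2B: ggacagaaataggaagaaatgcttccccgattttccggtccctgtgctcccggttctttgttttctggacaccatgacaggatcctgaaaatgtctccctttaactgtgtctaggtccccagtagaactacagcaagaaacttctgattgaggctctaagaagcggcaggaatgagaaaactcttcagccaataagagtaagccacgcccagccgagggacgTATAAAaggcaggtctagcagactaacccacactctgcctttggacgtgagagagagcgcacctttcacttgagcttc
FRG2C: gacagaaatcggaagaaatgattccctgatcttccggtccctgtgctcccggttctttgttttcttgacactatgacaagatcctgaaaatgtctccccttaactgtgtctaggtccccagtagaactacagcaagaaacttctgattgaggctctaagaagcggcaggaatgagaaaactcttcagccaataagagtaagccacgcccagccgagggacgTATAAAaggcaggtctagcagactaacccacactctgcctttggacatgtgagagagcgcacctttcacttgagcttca
RFPL4A: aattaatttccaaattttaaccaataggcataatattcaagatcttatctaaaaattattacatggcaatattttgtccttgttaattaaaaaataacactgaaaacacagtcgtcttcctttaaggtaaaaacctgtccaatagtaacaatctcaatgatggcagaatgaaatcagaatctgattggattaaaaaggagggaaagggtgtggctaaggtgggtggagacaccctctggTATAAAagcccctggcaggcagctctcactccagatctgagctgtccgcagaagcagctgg
The FRG2 windows were 96.01% to 99.34% identical to each other, and the RFPL4A window 48.46% to 49.71% identical to them in global alignment. TATAAA lay 28 or 29 bases before the start site in the FRG2 genes and 11 bases before it in RFPL4A. It was found on either strand in 7 of the 10 tested list genes with a window, against 14% of all genes with one. The near-identical FRG2 windows are counted separately in that share. A match is a description of letters, not a site.

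**Figure D3:**
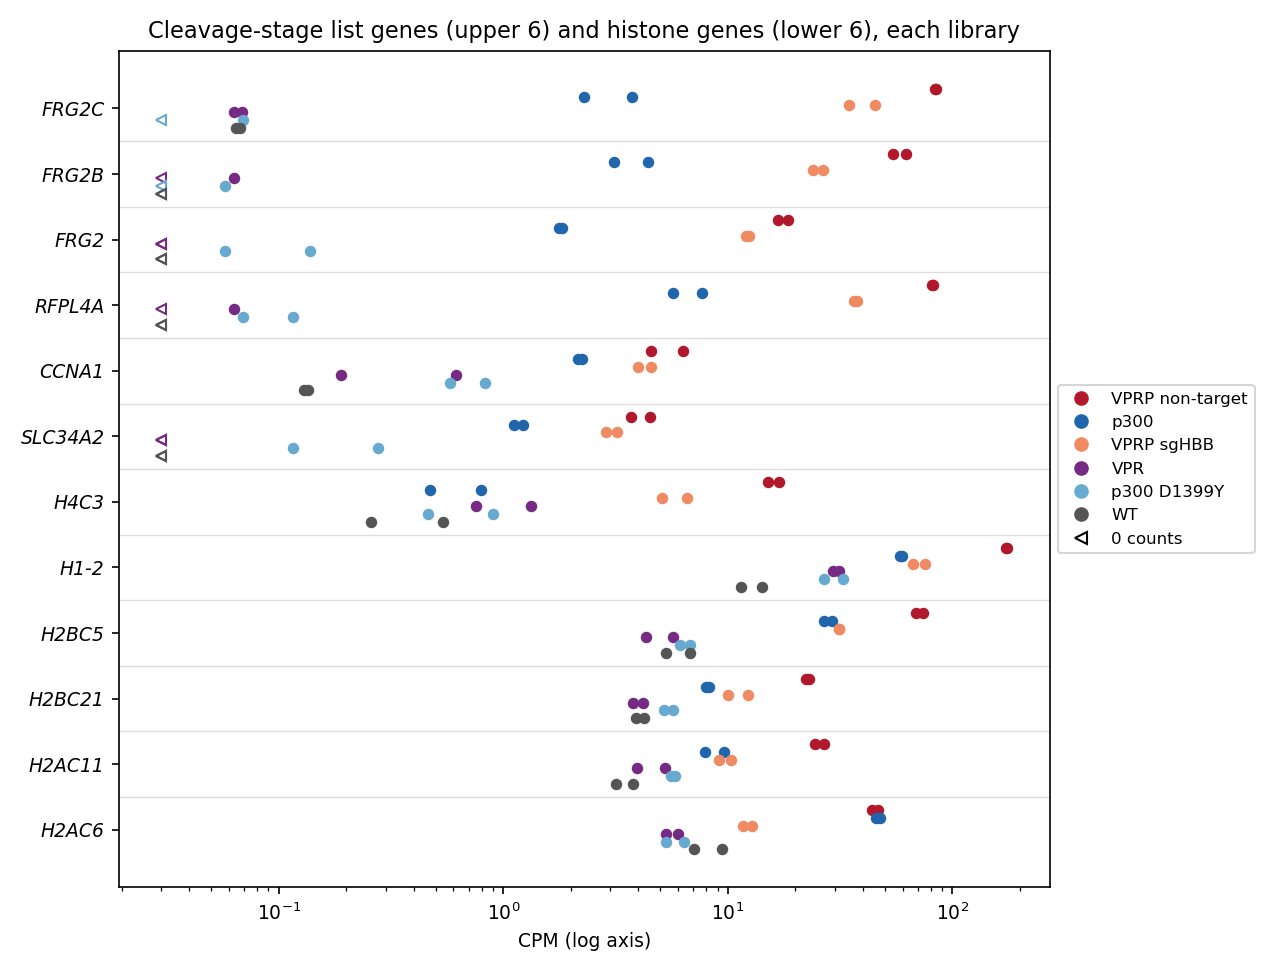
CPM in each library (log axis, one colour per group, open triangles 0 counts) for 6 genes of the cleavage-stage list and 6 histone genes. VPRP non-target points lie to the right of p300 points in every gene but H2AC6; the FRG2 genes and RFPL4A are at 0.138 CPM or less in VPR, p300 D1399Y and WT.

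Replication-dependent histone genes make the histones of S phase, and their normal transcripts end in a stem-loop without a poly(A) tail, so libraries selected on poly(A) hold only a part of them. Of 28 list genes 16 matched an ID and 15 were tested. In VPRP non-target cells 13 were higher and 0 lower by edgeR (background 23.6% and 23.2%), with a median log2 of 1.36. At an unadjusted p under 0.05 there were 0 lower, and by DESeq2 0 lower. H1-2, a linker histone, had 176 and 173 CPM in VPRP non-target cells, against 58.6 and 59.7 CPM in p300 cells (log2 1.56, SE 0.09, adjusted p = 2.84e-16). H4C3 had 16.9 and 15.1 CPM in VPRP non-target cells, against 0.796 and 0.471 CPM in p300 cells (log2 4.65, SE 0.30, adjusted p = 1.79e-14). H2AC11 had 24.4 and 26.8 CPM in VPRP non-target cells, against 7.89 and 9.599 CPM in p300 cells (log2 1.55). H2BC5 had 74.3 and 68.98 CPM in VPRP non-target cells, against 26.8 and 29.03 CPM in p300 cells (log2 1.36). H2AC6 did not pass the test, with 43.97 and 46.7 CPM in VPRP non-target cells, against 47.7 and 45.6 CPM in p300 cells (adjusted p = 0.773). The summed level was 571 and 596 CPM in VPRP non-target cells, against 309.6 and 311 CPM in p300 cells; it was 289 to 302 CPM in VPRP sgHBB, 188 to 195 CPM in VPR and 128 to 129.5 CPM in WT. In p300 D1399Y, a fusion without the VPR part, it was 177 to 193 CPM. That range overlaps VPR and lies above WT. In VPR against WT 6 were higher and 1 lower (background 13.8% and 11.5%), and 6 were higher in both comparisons. Histone genes are near-copies of each other, so single members are uncertain. TATAAA was found in 10 of the 14 tested members with a window, against 14% of genes.

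**Figure D4:**
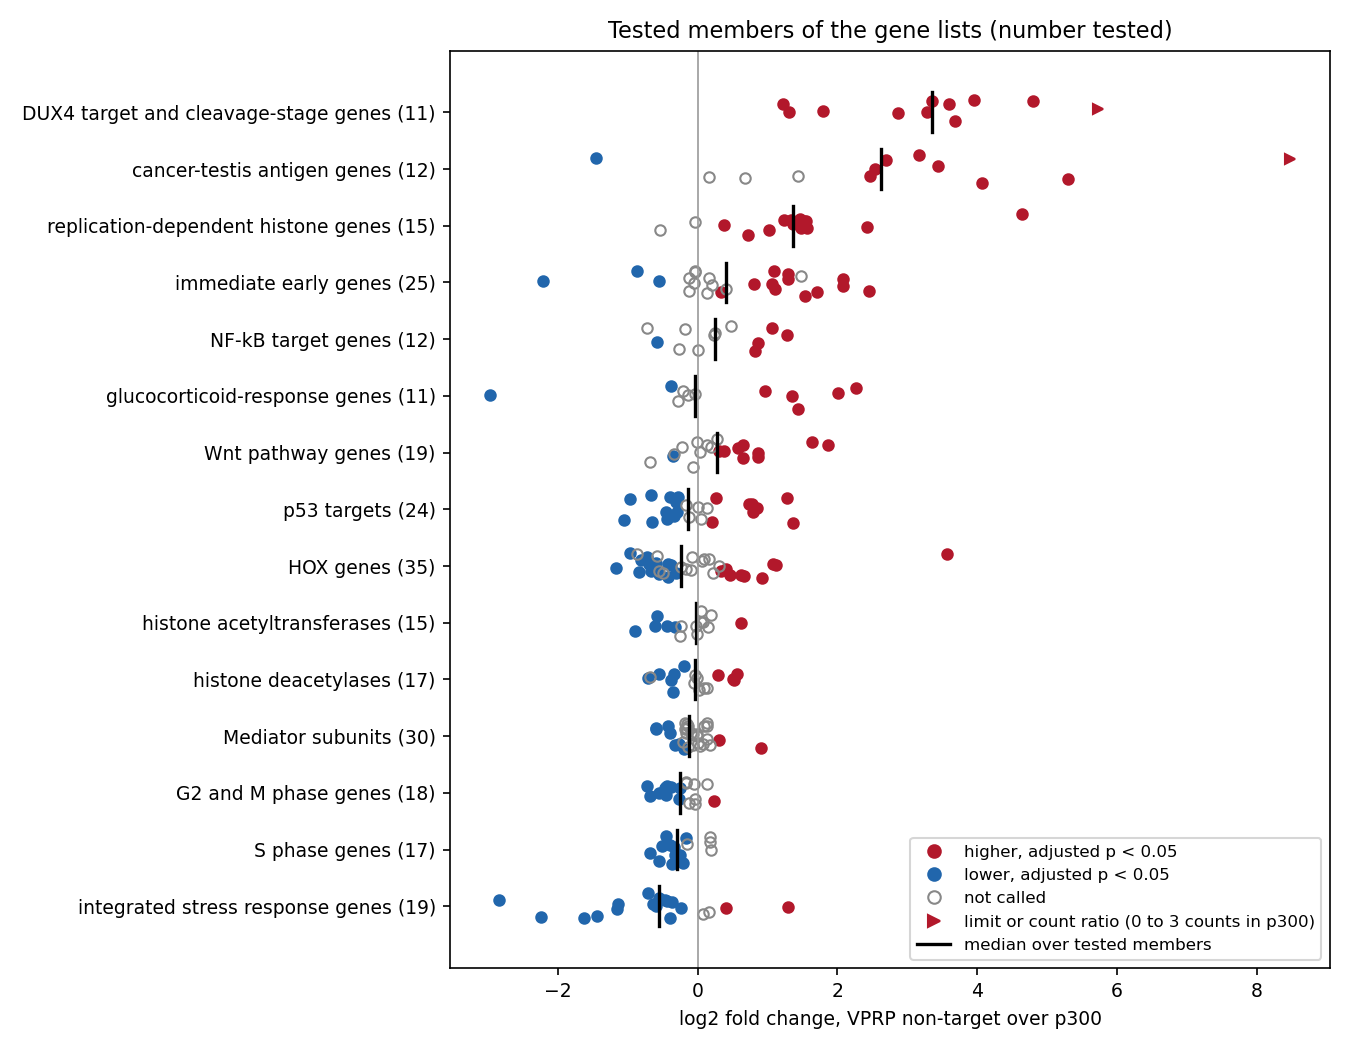
log2 fold change of VPRP non-target over p300 for the tested members of 15 gene lists (points; filled points passed an adjusted p of 0.05, triangles are limits or count ratios, bars are medians). The integrated stress response list lies to the left with a median of -0.55; the cleavage-stage and cancer-testis members shown passed the count filter through the group where they are high, so their place to the right is no support by itself.

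Of 25 tested immediate early genes, the first genes transcribed after growth or stress signals, 12 were higher and 3 lower in VPRP non-target cells (background 23.6% and 23.2%). ZFP36, an mRNA-destabilising protein, had 16.6 and 19.1 CPM in VPRP non-target cells, against 3.61 and 2.89 CPM in p300 cells (log2 2.46, SE 0.21, adjusted p = 7.79e-12). CCN2, a YAP and TGF-beta responsive matrix protein, had 18.3 and 17.2 CPM in VPRP non-target cells, against 4.53 and 3.89 CPM in p300 cells (log2 2.08). JUNB, an AP-1 subunit, had 54.7 and 46.6 CPM in VPRP non-target cells, against 17.2 and 13.7 CPM in p300 cells (log2 1.71). The 3 lower genes were ATF3, KLF6 and MYC, and the summed level of the list was 1817 and 1865 CPM in VPRP non-target cells, against 2136 and 2209 CPM in p300 cells. VPR against WT had 5 higher (3 with RLE factors, 2 with DESeq2) and 6 lower (background 13.8% and 11.5%). NF-kB target genes, whose factor includes the p65 protein used in VPR, had 4 higher and 1 lower of 12 tested (background 23.6% and 23.2%). VPR against WT gave 0 higher by edgeR, at an unadjusted p under 0.05 and by DESeq2. It gave 1 lower by edgeR and 0 by DESeq2 (background 13.8% higher and 11.5% lower). VPRP sgHBB against p300, which shares the p300 libraries, gave 3 higher and 2 lower, where 27.9% of all genes were called. NFKBIE, an inhibitor of NF-kB, had 37.6 and 35.2 CPM in VPRP non-target cells, against 15.5 and 14.4 CPM in p300 cells (log2 1.28). NFKB2 had 85.4 and 80.9 CPM in VPRP non-target cells, against 45.5 and 45.6 CPM in p300 cells (log2 0.87). NFKB1 was lower, with 20.1 and 22.7 CPM in VPRP non-target cells, against 30.2 and 34.1 CPM in p300 cells (log2 -0.59). IER3, an early-response survival gene of both lists, had 42.03 and 42.9 CPM in VPRP non-target cells, against 18.5 and 21.96 CPM in p300 cells (log2 1.07).

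Of 11 tested glucocorticoid-response genes 5 were higher and 2 lower (background 23.6% and 23.2%), so the share of lower genes was near the background. CRISPLD2, a secreted protein gene, had 60.4 and 60.3 CPM in VPRP non-target cells, against 11.1 and 13.8 CPM in p300 cells (log2 2.27, SE 0.11, adjusted p = 1.22e-17). SGK1, a serum- and glucocorticoid-regulated kinase, had 46.5 and 45.5 CPM in VPRP non-target cells, against 12.4 and 10.5 CPM in p300 cells (log2 2.003, SE 0.12, adjusted p = 4.22e-15). GADD45B, a stress-induced gene, had 79.9 and 75.96 CPM in VPRP non-target cells, against 30.3 and 27.2 CPM in p300 cells (log2 1.44). ERRFI1, a feedback inhibitor of the EGF receptor, had 137 and 145 CPM in VPRP non-target cells, against 55.02 and 55.6 CPM in p300 cells (log2 1.35). TSC22D3, of the same list, fell as described. CRISPLD2 had 57.01 and 59.8 CPM in VPRP sgHBB and less than 1 CPM in every library of VPR, p300 D1399Y and WT, and SGK1 had 42.3 and 38.2 CPM in VPRP sgHBB and less than 5 CPM in those 6 libraries. Of the 11, 0 were higher in VPR against WT by edgeR (1 at an unadjusted p under 0.05, 0 by DESeq2) and 3 were lower. The background there was 13.8% higher and 11.5% lower. Wnt pathway genes, receptors and feedback targets, had 9 higher and 1 lower of 19 in VPRP non-target cells (background 23.6% and 23.2%). FZD9, a Frizzled receptor, had 55.8 and 57.2 CPM in VPRP non-target cells, against 17.3 and 19.02 CPM in p300 cells (log2 1.64, SE 0.10, adjusted p = 8.04e-15). NKD1, a feedback inhibitor, had 27.3 and 24.8 CPM in VPRP non-target cells, against 14.4 and 14.4 CPM in p300 cells (log2 0.86).

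Of 17 tested S phase genes 13 were lower and 0 higher in VPRP non-target cells by edgeR (background 23.2% and 23.6%), with a median log2 of -0.29. At an unadjusted p under 0.05 there was 1 higher, and by DESeq2 1 higher. RRM2, a subunit of ribonucleotide reductase, had 172 and 183 CPM in VPRP non-target cells, against 285 and 282 CPM in p300 cells (log2 -0.68, SE 0.07, adjusted p = 1.12e-09). MCM3, of the replicative helicase, had 207 and 199 CPM in VPRP non-target cells, against 273 and 282 CPM in p300 cells (log2 -0.45). Of 18 G2 and M phase genes 10 were lower and 1 higher (background 23.2% and 23.6%). TOP2A, topoisomerase II alpha, had 186 and 191 CPM in VPRP non-target cells, against 315 and 309 CPM in p300 cells (log2 -0.73, SE 0.07, adjusted p = 8.11e-11). AURKA, a mitotic kinase, had 75.5 and 76.3 CPM in VPRP non-target cells, against 100.3 and 108 CPM in p300 cells (log2 -0.46). The same lists in VPR against WT had 8 higher and 1 lower (S phase; 2 lower with DESeq2; background 13.8% and 11.5%) and 14 higher and 0 lower (G2 and M phase; 0 lower at an unadjusted p under 0.05 and by DESeq2). The difference of effects is VPRP non-target over p300 minus VPR over WT. It was called lower for 12 of 17 S phase genes and 15 of 18 G2 and M phase genes, against 19.3% of all genes.

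Targets of p53, the DNA damage and stress factor, were split: 8 of 24 were higher and 11 lower (background 23.6% and 23.2%). MDM2, the ubiquitin ligase that restrains p53, had 67.6 and 66.8 CPM in VPRP non-target cells, against 142 and 137 CPM in p300 cells (log2 -1.05, SE 0.08, adjusted p = 9.70e-13). CDKN1A, the cell cycle inhibitor p21, had 101 and 95.3 CPM in VPRP non-target cells, against 122 and 134 CPM in p300 cells (log2 -0.39). GDF15, a stress cytokine, had 11.6 and 9.86 CPM in VPRP non-target cells, against 4.59 and 4.24 CPM in p300 cells (log2 1.28, SE 0.19, adjusted p = 1.25e-06). PLK3, a stress-responsive kinase, had 19.2 and 17.7 CPM in VPRP non-target cells, against 5.57 and 8.72 CPM in p300 cells (log2 1.36). In VPR against WT 17 of 24 were higher and 3 lower (background 13.8% and 11.5%), and in VPRP sgHBB against p300, which shares the p300 libraries, 15 were higher and 3 lower. The summed level of the list was highest in p300 D1399Y, a fusion without the VPR part, at 2482 to 2512 CPM. It was 2254 to 2296 CPM in VPRP sgHBB, 1904 to 1932 CPM in VPR and 1598 to 1606 CPM in WT. VPRP non-target had 1784 to 1798 CPM and p300 1922 to 1957 CPM. CDKN1A had 111 and 108 CPM in VPR cells, against 44.8 and 43.02 CPM in WT cells (log2 1.32). The difference of effects was called lower for 16 of the 24 and higher for 4 (background 19.3% and 16.1%). Of the BCL2 family, regulators of apoptosis, 3 of 13 were higher and 6 lower; BMF, a BH3-only gene, had 23.3 and 20.7 CPM in VPRP non-target cells, against 6.79 and 7.24 CPM in p300 cells (log2 1.65). PMAIP1, which encodes NOXA, had 69.5 and 71.5 CPM in VPRP non-target cells, against 148 and 146 CPM in p300 cells (log2 -1.06).

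Of 30 cancer-testis antigen genes on the list, normally silent outside the germline, 12 were tested. In VPRP non-target cells 8 were higher and 1 lower (0 lower with DESeq2), against 23.6% and 23.2% of all genes. As with the cleavage-stage genes, such low genes pass the filter through the group where they are high. MAGEA6 had 79.2 and 83.9 CPM in VPRP non-target cells, against 3.67 and 5.95 CPM in p300 cells (log2 4.08, SE 0.13, adjusted p = 1.52e-22), with 24.4 and 24.3 CPM in WT. MAGEC1 had 4.49 and 4.82 CPM in VPRP non-target cells, against 0.612 and 0.236 CPM in p300 cells (log2 3.44, SE 0.45, adjusted p = 1.59e-07). SSX1 had 1.94 and 2.44 CPM in VPRP non-target cells, against 0.428 and 0.236 CPM in p300 cells (log2 2.70). Of the 8 higher genes 4 followed the MAGEA10 pattern (MAGEA10 itself, MAGEA3, MAGEA6 and MAGEB2), and reads of MAGEA copies are uncertain. PRAME, another gene of the list, had 45.2 and 49.8 CPM in VPRP non-target cells, against 42.7 and 42.2 CPM in p300 cells, and did not pass the test (adjusted p = 0.124).

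HOX genes, the clustered homeobox factors of body-axis identity, were higher in 9 of 35 cases and lower in 13, against 23.6% and 23.2% of all genes, so the share of higher genes was near the background. HOXB9, the most abundant of those named, had 56.7 and 56.1 CPM in VPRP non-target cells, against 128 and 126 CPM in p300 cells (log2 -1.17, SE 0.07, adjusted p = 5.76e-15). HOXA5 had 16.7 and 17.95 CPM in VPRP non-target cells, against 34.9 and 32.9 CPM in p300 cells (log2 -0.97), and HOXD1 rose, with 7.77 and 5.26 CPM in VPRP non-target cells, against 0.49 and 0.589 CPM in p300 cells (log2 3.57, SE 0.42, adjusted p = 1.27e-08). The summed level was 457 and 483 CPM in VPRP non-target cells, against 586 and 591 CPM in p300 cells, and 857 CPM in both WT libraries.

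Of 15 other histone acetyltransferase and related coactivator genes 5 were lower and 1 higher, against 23.2% and 23.6% of all genes. Shares near that background, such as those of the Mediator subunits lower and the deacetylases higher below, are not a result about the list. KAT6B had 15.97 and 16.3 CPM in VPRP non-target cells, against 31.4 and 28.6 CPM in p300 cells (log2 -0.89, SE 0.12, adjusted p = 2.98e-07). KAT7 had 39.7 and 46.1 CPM in VPRP non-target cells, against 61.1 and 67.01 CPM in p300 cells (log2 -0.58). NCOA3, a nuclear receptor coactivator, had 60.1 and 57.01 CPM in VPRP non-target cells, against 38.3 and 37.5 CPM in p300 cells (log2 0.63). Histone deacetylases had 4 higher and 6 lower of 17; HDAC2 had 242 and 254 CPM in VPRP non-target cells, against 374 and 352 CPM in p300 cells (log2 -0.55). HDAC5 had 99.4 and 101 CPM in VPRP non-target cells, against 65.97 and 69.6 CPM in p300 cells (log2 0.56). Bromodomain genes, readers of acetylated histones, had 3 higher and 8 lower of 20, with PBRM1 at 70.6 and 77.5 CPM in VPRP non-target cells, against 102 and 98.9 CPM in p300 cells (log2 -0.44). Mediator subunits, which VP16-type activation domains contact, had 2 higher and 7 lower of 30: MED12, of the kinase module, had 52.4 and 47.3 CPM in VPRP non-target cells, against 68.8 and 81.9 CPM in p300 cells (log2 -0.60, SE 0.09, adjusted p = 2.74e-06). MED26 had 25.4 and 21.7 CPM in VPRP non-target cells, against 11.5 and 13.5 CPM in p300 cells (log2 0.91, SE 0.14, adjusted p = 1.25e-06). The median log2 of these 4 lists lay between -0.12 and -0.02, and that of the acetyltransferases turned to 0.0026 with RLE factors.

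The counts of the remaining pathway lists are read against 23.6% of all genes higher and 23.2% lower, and a share near these is not a result about a list. Of these lists, 4 of 15 unfolded protein response genes were higher and 4 lower, and 6 of 14 heat shock genes were higher and 3 lower. Cholesterol synthesis genes had 8 higher and 4 lower of 19, hypoxia genes 6 and 2 of 11, BMP and TGF-beta genes 4 and 2 of 12, and interferon-stimulated genes 3 and 6 of 14. With DESeq2 the interferon-stimulated genes had 3 higher and 4 lower, and the BMP and TGF-beta genes 4 higher and 1 lower. MAPK feedback genes had 3 higher and 0 lower of 12 by edgeR (0 lower at an unadjusted p under 0.05 and by DESeq2), with DUSP5, an ERK phosphatase, at 20.7 and 21.7 CPM in VPRP non-target cells, against 5.997 and 6.24 CPM in p300 cells (log2 1.79, SE 0.17, adjusted p = 1.16e-10). NRF2 targets had 2 higher and 2 lower of 11; HMOX1, heme oxygenase 1, had 35.6 and 36.6 CPM in VPRP non-target cells, against 97.5 and 98.8 CPM in p300 cells (log2 -1.44, SE 0.10, adjusted p = 2.34e-14). OSGIN1 had 6.195 and 8.81 CPM in VPRP non-target cells, against 0.49 and 1.296 CPM in p300 cells (log2 3.05, SE 0.36, adjusted p = 1.64e-08). ID2, an inhibitor of differentiation in the BMP list, had 40.6 and 41.3 CPM in VPRP non-target cells, against 83.6 and 85.8 CPM in p300 cells (log2 -1.05). Ribosome biogenesis and MYC target genes had 1 higher and 7 lower of 17, with GNL3, nucleostemin, at 123 and 124 CPM in VPRP non-target cells, against 188 and 189 CPM in p300 cells (log2 -0.61). Of 13 mitochondrially encoded mRNAs 2 were lower with edgeR (6 at an unadjusted p under 0.05) and 0 with DESeq2. Of the 6 globin genes tested, HBB and HBQ1 were lower and HBA1 and HBA2 higher; HBA1 and HBA2 had less than 1 CPM in each of the 4 libraries, the HBA1 call was lost with DESeq2 (adjusted p = 0.0677), and the HBA2 call without VPRP non-target replicate 2 (adjusted p = 0.0516).

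Markers of HEK293 cells were present in all 4 libraries: KRT8 had 50.9 and 47.2 CPM in VPRP non-target cells, against 48.7 and 50.996 CPM in p300 cells. CDH2 had 76.6 and 77.7 CPM in VPRP non-target cells, against 78.8 and 78.03 CPM in p300 cells. PAX8 had less than 1 CPM in each. Of the 10 tested markers of this list VIM (58.5 and 60.4 CPM in VPRP non-target cells, against 91.3 and 89.98 CPM in p300 cells, log2 -0.61) and the WT1 gene were lower, the WT1 gene not without p300 replicate 1 (adjusted p = 0.058). The summed CPM of 9 myeloid markers was 9.53 and 12.3 in VPRP non-target cells, against 2.88 and 3.06 in p300 cells, with 5 of 7 tested genes higher (4 with DESeq2). Genes so low pass the filter through the groups where they are high, so this count is no support by itself. ELANE had 0.85 and 0.332 CPM in VPRP non-target cells and 0 counts in p300 cells. The other groups with an HBB guide summed to 9.51 to 12.0 CPM and WT to 0.776 and 1.14 CPM. Erythroid markers summed to 234 and 240.04 CPM in VPRP non-target cells, against 235 and 244 CPM in p300 cells, nearly all of it TFRC, and GYPB had 0 counts. The 12 mesenchymal markers had 1 higher and 4 lower of 8 tested, with COL1A2 at 0.0607 and 0 CPM in VPRP non-target cells, against 0 and 0.0589 CPM in p300 cells, and their sum was 111 and 112 CPM in VPRP non-target cells, against 116 and 131 CPM in p300 cells. Neuronal markers summed to 241 and 247 CPM in VPRP non-target cells, against 241 and 246 CPM in p300 cells, and had 4 higher and 5 lower of 11, with NEFH at 9.84 and 9.64 CPM in VPRP non-target cells, against 2.14 and 2.24 CPM in p300 cells (log2 2.15, SE 0.24, adjusted p = 6.82e-09), and with SV2A lower as given above. Among lymphoid and endothelial markers VWF was higher, a call that was lost with DESeq2 (adjusted p = 0.106), while MS4A1 had 0 counts. Over all genes 23.6% were higher and 23.2% lower, and a marker share near these is not a result about a list. The part of these markers in the results was not tested.

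A difference of effects was tested as VPRP non-target over p300 minus VPR over WT. VPR over WT adds the whole dCas9-VPR fusion, and the HBB guide stands on opposite sides in both comparisons. Neither can be told apart from the VPR part. The difference of effects was called for 5926 genes (35.5%), 2696 positive (16.1%) and 3230 negative (19.3%). It was called for 43.2% of genes at least 2-fold higher in VPRP non-target cells and for 76.0% of those at least 2-fold lower. The difference contains the main comparison and its libraries, so genes picked by that comparison are called in it more often. These shares are no support by themselves. After HBB, the largest negative differences were in EVPL, COL16A1 and SV2A, which fell in VPRP non-target cells and rose in VPR cells. EVPL, the epithelial protein envoplakin, had 0.425 and 0.887 CPM in VPRP non-target cells, against 4.16 and 3.42 CPM in p300 cells (log2 -2.49, SE 0.31, adjusted p = 4.48e-08), and 8.87 and 6.77 CPM in VPR cells, against 0.202 and 0.194 CPM in WT cells (log2 5.26, SE 0.36, adjusted p = 8.13e-13). In both comparisons the group with the HBB guide was the higher one for these 3 genes, as for HBB. With the HBB guide on both sides, VPRP sgHBB over p300 was positive, with a log2 of 2.83 for EVPL, 1.03 for COL16A1 and 1.05 for SV2A; that comparison shares the p300 libraries. Under the same fusion, EVPL had 0.425 and 0.887 CPM in VPRP non-target cells and 24.5 and 29.5 CPM in VPRP sgHBB cells, and COL16A1 had 0.85 and 0.942 CPM in VPRP non-target cells and 17.8 and 20.4 CPM in VPRP sgHBB cells. These groups also differ in the EP300 level and lie on opposite sides of the MAGEA10 pattern, so the guide cannot be told apart from these. The largest positive differences were in MAGEA10, TSSC2, LINC00470 and RASD1; the first 3 follow the MAGEA10 pattern and RASD1 does not.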

How the data were processed

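RNA was measured by paired-end sequencing of poly(A) mRNA in 12 HEK293 libraries. The table deposited by the authors holds raw read counts per gene ID. Per the submitters' processing notes the tools of the series include STAR 2.5, HTSeq 0.6.1 and DESeq2 1.24.0 and the build hg19, with no role given; the annotation, strand setting and alignment options are not stated in the sources used here. If the counting ignored strand, reads of overlapping genes cannot be told apart.

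Counts were fitted with edgeR 4.0.16 (limma 3.58.1, R 4.3.3) by the quasi-likelihood test with 1 mean per group over all 12 libraries, after TMM scaling and a filter on low counts (filterByExpr, minimum count 10 and minimum total 15). Calls are at a Benjamini-Hochberg adjusted p of 0.05 over 16694 genes. SE is the absolute log2 change over the square root of F. A group with 0 counts gives a bound from 3 counts over the group, and 1 to 3 counts give a ratio with an exact 95% binomial interval; both cover counting error only. IDs without a symbol took 0.766% to 0.896% of counts and had no name to print. Genes were named by rule: the largest called changes with an average log2 CPM of 1 or more, then the largest that did not follow the MAGEA10 pattern, those called the same way in VPR against WT, and the largest differences of effects; up to 5 called members with the largest changes were named per list. ASNS, ATF4, CCNA1, CDH2, CDKN1A, COL1A2, DDIT3, FRG2, H2AC6, H2BC5, KRT8, PRAME, PSAT1, SSX1 and ZSCAN4 are list members named after their values were seen. Members, lists and tests were chosen with earlier results of these data known. Of 597 members in 34 lists, 577 matched and 498 were tested. Replicate numbers were not taken as pairs: the labels do not say that a number marks a shared batch, and deviations of same-numbered VPRP non-target and p300 libraries correlated at 0.036. The fit was tested on simulated data. Promoters come from RefSeq (GRCh38.p14). Figures were drawn with matplotlib 3.10.9. The H3K27ac samples were not analysed here, and some genes named by the rule or held in the lists are not reported here.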

Additional observations from a re-analysis of the deposited data

Results flagged for a closer look

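The difference of VPRP non-target over p300 minus VPR over WT was tested with the quasi-likelihood test of edgeR, Benjamini-Hochberg adjusted. The HBB guide is on the p300 side of the first comparison and on the VPR side of the second. WT cells also held no dCas9 fusion, so the difference is not one of the VPR part alone. The difference was called for 5926 genes. The gene with the lowest difference was HBB, the target of that guide, at -20.729 or less on the log2 scale (from floors on both sides, with 0 counts in VPRP non-target and in WT cells). EVPL had a difference of -7.75 (SE 0.49, adjusted p = 3.03e-14), COL16A1 of -7.01 (SE 0.43, adjusted p = 1.36e-14) and SV2A of -5.34 (SE 0.24, adjusted p = 3.10e-18); each was lower in VPRP non-target than in p300 cells and higher in VPR than in WT cells.

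Positive differences were largest for MAGEA10, at 7.02 or more (adjusted p = 4.56e-15), TSSC2 at 5.91 (SE 0.24, adjusted p = 1.33e-19), LINC00470 at 5.35 (from a count ratio, adjusted p = 1.65e-07) and RASD1 at 5.25 (SE 0.60, adjusted p = 2.83e-08). TSSC2 and RASD1 were higher in VPRP non-target than in p300 cells; TSSC2 was lower in VPR than in WT cells, and RASD1 was not called there.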

How the results depend on the processing

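The count of genes called between VPRP non-target and p300 cells was 7821, and it was 7771 with RLE factors, 7843 with upper-quartile factors, 6688 with DESeq2, 7499 with no filter on low counts, 7586 with a stricter filter and 8766 with the 4 libraries fitted alone. Leaving out 1 library gave 5998 to 6200. With the replicate block it was 7609; the block gave 4470 genes for VPRP sgHBB against p300, 4006 for VPR against WT and 5740 for the difference of effects, and no count moved by over 1.5 times. Same-numbered libraries shared only a number.

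Counts moved by over 1.5 times when a library was left out in VPRP sgHBB against p300, where they ran from 3089 (without p300 replicate 1) to 3501, against 4660 with all libraries, and in VPR against WT, where they ran from 2548 to 4199 (2746 without VPR replicate 2, 2752 without WT replicate 1, 2548 without WT replicate 2), against 4220. The cause was not tested. The difference of effects gave 4770 to 6074 genes.

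Of 2017 values of single genes compared over the alternatives between VPRP non-target and p300 cells, 1930 kept their direction and their side of the threshold, 87 lost the call and 0 changed sign. In VPR against WT another 6 lost it, in AEBP1, INKA1, PRSS8 and NUPR1, when 1 library was left out. Of the genes named by rule for their own change, not as list members, none lost its call between VPRP non-target and p300 cells under any alternative run. Depth limits genes with few counts: a count of 0 in both VPRP non-target libraries allows up to 0.0869 CPM, and in both p300 libraries up to 0.0900 CPM.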
